A study of Mus musculus with 2 samples.

Results

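Venous endothelial cells of the brain were examined in 2 droplet single-cell libraries from mice labelled Shank3-/-. Members were chosen on their own UMIs (unique molecular identifiers, one per captured RNA molecule). Of the 27561 deposited cell barcodes, 24541 passed a minimum of 500 detected genes and a ceiling of 5% for mitochondrial UMIs, and 6057 of these were endothelial, with a UMI for at least 4 of Cldn5, Flt1, Pecam1, Ly6c1, Slco1a4, Adgrl4 and Mecom and at most 1 UMI from Slc17a7, Cx3cr1, Mog and Kcnj8 together. An endothelial barcode was venous if the UMIs of Vwf, Lrg1, Il1r1, Ch25h and Slc38a5, summed into a venous score, came to at least 2 and exceeded those of the arterial genes Bmx, Gkn3, Sema3g and Fbln2. The rule found 1662 members, 867 in the vehicle library and 795 in the fluconazole library.

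The vehicle library is labelled MOCK, and the other came from mice given fluconazole, an azole antifungal that blocks fungal sterol demethylation, by mouth in their drinking water for 2 weeks. Every group carries the Shank3-/- genotype, so neither library holds wild-type cells, and neither the ages nor the number of mice pooled per library is given in the sources used here. The tissue is given as brain in the labels and as prefrontal cortex in the design text. That text speaks of cells together with nuclei whereas the extraction protocol describes nuclei, so a barcode may stand for a cell or a nucleus. There is 1 library per treatment: no comparison below has a replicate or a test, and the 95% intervals given cover counting error only, not differences between mice, dissections or library preparations.

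Blood in the cortex drains from capillaries into postcapillary venules and veins, and the endothelium of these vessels is where leukocytes most readily adhere and cross. Venous identity depends on the transcription factor Nr2f2, and venular endothelium carries adhesion molecules such as Vcam1, Icam1 and the selectins, chemokine-binding Ackr1 and the interleukin-1 receptor Il1r1. Von Willebrand factor, encoded by Vwf, is stored in these cells and tethers platelets after injury.

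The venous libraries held 4751545 UMIs with vehicle and 4731334 with fluconazole. The median member had 4126 and 4189 UMIs, 2154 and 2176 genes, and 2.48% and 2.68% mitochondrial UMIs. The endothelial barcodes that were neither venous nor arterial, called remaining endothelial here, were shallower, with medians of 2525.5 and 2806 UMIs. Members shared few barcode sequences between libraries: of 45 shared sequences, 1 vehicle and 8 fluconazole members were among them, and 1 was a member in both. Levels are given as counts per 1000000 UMIs (CPM) over the summed members of a library.

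Members made up a closely similar share of endothelial barcodes in both libraries. The share was 27.5% with vehicle (95% Clopper-Pearson interval 25.9% to 29.1%) and 27.4% with fluconazole (25.8% to 29.1%), a ratio of 0.998. The score counts UMIs and so depends on depth: with every barcode thinned to 1500 UMIs and shallower ones left out, the shares were 17.5% and 16.9%. Just outside the threshold stood 650 vehicle and 558 fluconazole endothelial barcodes with a score of 1. A further 144 and 189 had a score of at least 2 that the arterial score equalled or passed.

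The genes of the rule show how members qualified, as a description. Vwf stood at 570 CPM with vehicle and 684 CPM with fluconazole. Slc38a5, a glutamine transporter of the barrier endothelium, stood at 478 and 529 CPM, and Il1r1 at 383 and 655 CPM. Lrg1, a secreted glycoprotein induced by inflammation, stood at 38.3 and 85.0 CPM and the oxysterol enzyme Ch25h at 35.4 and 58.8 CPM. Thus 27.0% of vehicle and 22.5% of fluconazole members had UMIs for only 1 of the 5 venous genes, most often Slc38a5 (17.0% and 12.5% of members). At the other end, 10.1% and 15.5% of members had a score of 20 or more.

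The score ordered members from capillary-like levels to strongly venous ones when read by genes the rule did not use. In the vehicle library Vcam1, the adhesion molecule that holds leukocyte integrins, stood at 12 CPM at a score of 1, 28.6 CPM at a score of 2 and 730 CPM at a score of 20 or more. In the fluconazole library its values at these scores were 12.7, 35 and 675 CPM. Nr2f2 went from 103 CPM at a score of 2 to 509 CPM at 20 or more with vehicle and from 84.0 to 449 CPM with fluconazole. The chemokine Cxcl12, high in capillary and arterial endothelium, went the other way, from 1724 to 149 CPM with vehicle and from 1660.5 to 174 CPM with fluconazole. The lowest-scoring members, at 238 vehicle and 210 fluconazole barcodes, therefore lay nearer to the endothelial barcodes just outside the rule than to the highest-scoring members. Depth moved with the score: the median vehicle member had 3277.5 UMIs at a score of 2 and 11160 at 20 or more.

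**Figure D1:**
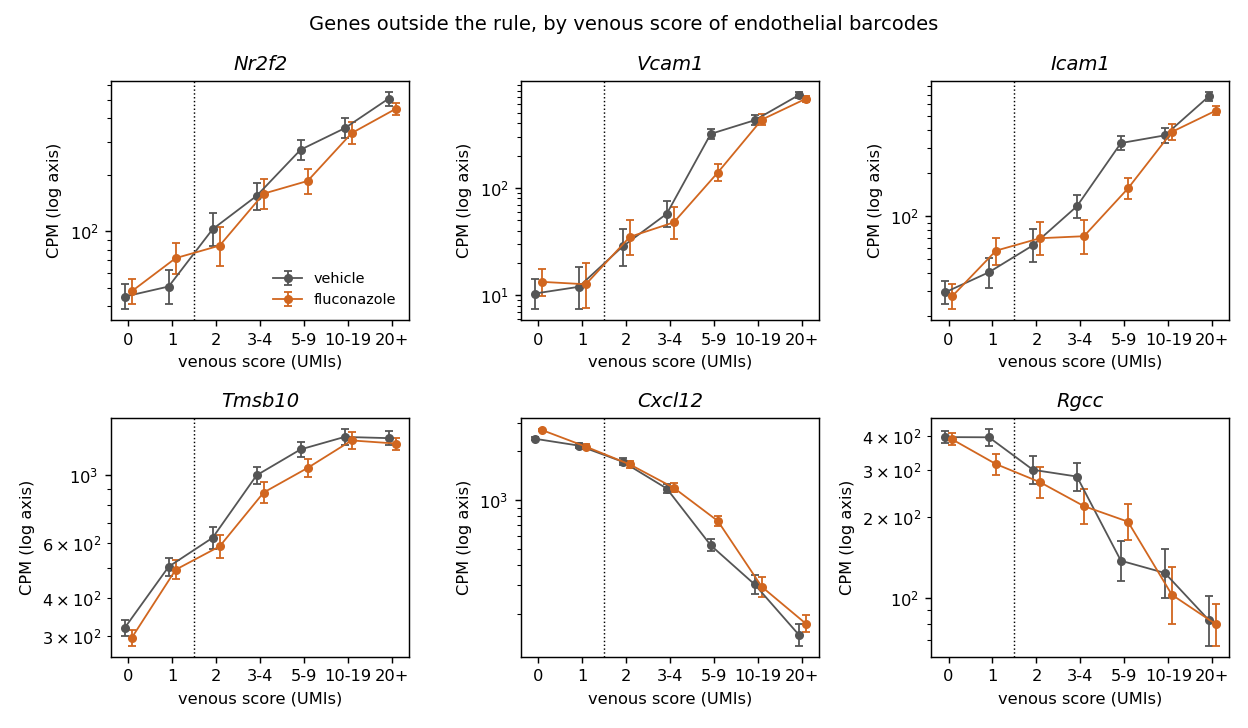
CPM (log axis) of 6 genes outside the rule in endothelial barcodes by venous score, for the vehicle (grey) and fluconazole (orange) libraries; bars are 95% Poisson intervals, the dotted line marks the threshold of 2, and scores 0 and 1 are the remaining endothelial barcodes. Nr2f2, Vcam1, Icam1 and Tmsb10 climb with the score in both libraries while Cxcl12 and Rgcc decline.

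Which score genes a member carried made a similar division. The 354 vehicle and 374 fluconazole members with both Vwf and Il1r1 (40.8% and 47.0% of members) had Vcam1 at 508 and 462 CPM, Ackr1 at 63.0 and 43.6 CPM and Cxcl12 at 324 and 331 CPM. The 149 and 101 members with neither had Vcam1 at 34.7 and 82.9 CPM, Ackr1 at 4.96 and 2.51 CPM and Cxcl12 at 1493 and 1638 CPM. Members with both genes were also deeper, at medians of 6290.5 and 5615 UMIs against 3540 and 3243.

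The label held against markers outside the rule. Of 11 venous markers measured in both libraries, 9 were at least 2-fold higher in venous than in remaining endothelial barcodes in both, against 1.14% of all 11580 genes measured (132 genes). Nr2f2 stood at 282 CPM in venous against 46.6 CPM in remaining barcodes with vehicle, and at 269 against 54.9 CPM with fluconazole. Ackr1, the decoy receptor that marks postcapillary venules, stood at 36.4 against 1.96 CPM and at 33.8 against 2.30 CPM. The receptor Ephb4 exceeded the threshold with vehicle only (log2 1.06 and 0.78), and Hmcn1 was not higher (log2 -0.08 and -0.31). Of 9 capillary markers, 3 were at least 2-fold lower in venous barcodes in both libraries, namely Cxcl12, Rgcc and Ivns1abp, against 9.33% of all genes. Mfsd2a, the lipid transporter of capillary endothelium, was lower by less (log2 -0.57 and -0.63), and 3 were higher in both libraries: Car4 (log2 0.49 and 0.43), Slc22a8 (0.49 and 0.39) and Slc16a1 (0.30 and 0.02). Of 12 arterial markers outside the rule, 4 were at least 2-fold lower in both libraries, and 3 were higher in both. These were Eln (1.63 and 1.71), Mgp (0.90 and 0.55) and Vegfc (log2 0.60 with vehicle, at 49.0 against 32.4 CPM, and at 29.6 against 14.8 CPM with fluconazole). All 3 were far higher in arterial than in venous barcodes. Eln stood at 214 and 239 CPM in arterial against 29.3 and 33.4 CPM in venous barcodes, and Mgp at 1108 and 1672 against 81.2 and 73.1 CPM. Arterial Vegfc stood at 448 and 335 CPM.

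The 2 libraries largely agreed on what set the venous barcodes apart. Of the 196 genes at least 2-fold higher with vehicle and the 211 with fluconazole, 132 were shared, 67.3% and 62.6% of each. Ptgs2, the inducible cyclooxygenase of prostaglandin synthesis, had the highest ratio among genes with at least 100 UMIs in each library and at most 20% of them in 1 barcode, at 108 against 2.49 CPM with vehicle (log2 5.44, interval 4.68 to 6.33) and 99.1 against 2.30 CPM with fluconazole (log2 5.43, 4.61 to 6.39). Vcam1 stood at 319 against 10.8 CPM with vehicle and 320 against 13.6 CPM with fluconazole. Vcam1 also had UMIs in arterial barcodes, at 252 and 176 CPM. Icam1, the ligand of leukocyte integrins, stood at 318 against 33.4 CPM and 284 against 36.3 CPM. Microglia also carried it, with an Icam1 UMI in 62.2% and 65.7% of their barcodes against 34.6% and 33.1% of venous ones.

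Other genes in this group are less often listed as venous markers. Adgrg6, an adhesion G protein-coupled receptor, stood at 127 against 8.54 CPM with vehicle and 130 against 4.61 CPM with fluconazole. The secreted ligand Wnt5a stood at 92.4 against 13.0 CPM and 138 against 10.6 CPM. F5, coagulation factor V, stood at 51.4 against 7.65 CPM and 74.2 against 9.03 CPM, with arterial levels of 3.05 and 0.298 CPM. Cysltr1, a receptor for the leukotrienes that act on venules, had log2 ratios of 3.01 and 3.45 but also a UMI in 25.2% of vehicle microglia. Adh1, Dach2 and Myof had log2 ratios between 2.62 and 4.03 in the 2 libraries.

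The genes lower in venous barcodes included several known from neurons. At least 2-fold lower in both libraries were 1080 genes, 9.33% of those measured. Among the 8 named for the strongest such ratios were Epha5, an ephrin receptor, at 34.7 against 169 CPM with vehicle and 16.3 against 100 CPM with fluconazole, and the cell adhesion gene Chl1, at 10.5 against 43.9 CPM and 6.55 against 29.0 CPM. The others were Myo16, Adcy2, Slc26a10, Glp2r, Mlip and Agbl4. The neuron marker list moved with them: its 8 genes, all detected, summed to 676 CPM in venous and 2430 CPM in remaining barcodes with vehicle and to 500 and 1683 CPM with fluconazole. Where barcodes with more than 1% of UMIs from the markers of other classes were left out, a setting chosen after seeing the data, 162 genes in place of 1080 were at least 2-fold lower, while 120 in place of 132 were at least 2-fold higher.

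**Figure D2:**
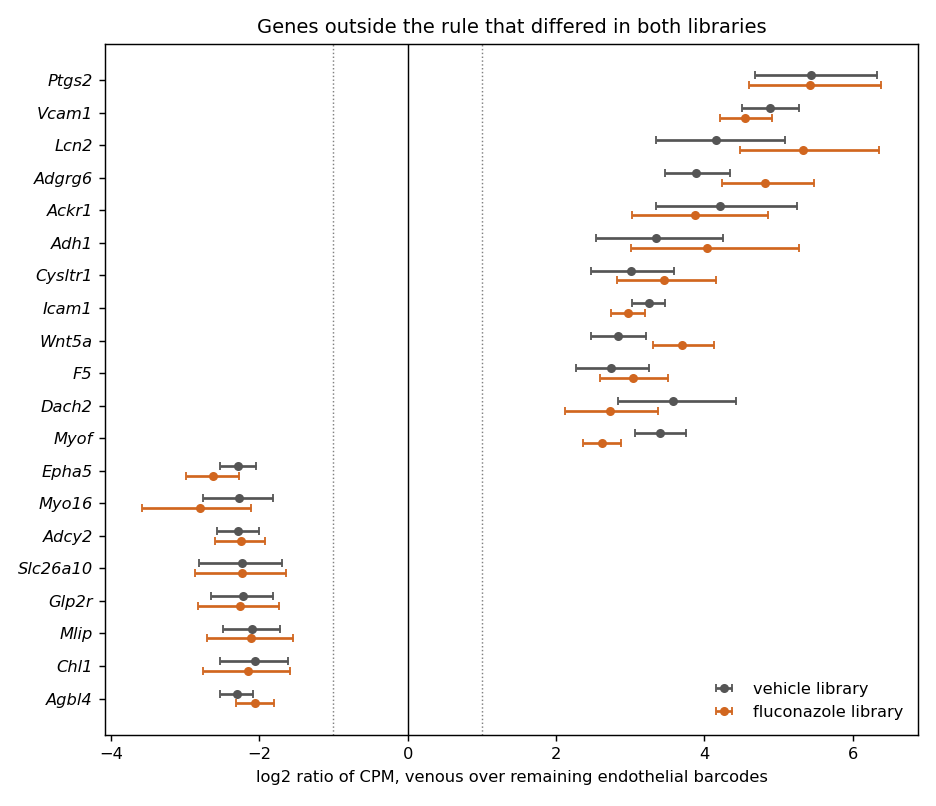
Log2 ratios of CPM, venous over remaining endothelial barcodes, for the 12 genes with the highest and 8 with the lowest ratios in both libraries, with 95% counting intervals; dotted lines mark 2-fold. In each gene the vehicle (grey) and fluconazole (orange) values lie on the same side of both lines.

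Between treatments, most genes of the venous barcodes differed little. Of 11132 genes with at least 50 UMIs, 313 (2.81%) were at least 1.5-fold higher with fluconazole and 432 (3.88%) at least 1.5-fold lower. The median log2 ratio was -0.01, and 48.3% of genes were above 0. These counts describe 2 libraries and say nothing of how many genes differ between treated and untreated mice.

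Among genes with at least 100 UMIs and at most 20% of them in 1 barcode, Zbtb16 had the highest ratio. This transcription factor, also called PLZF, is induced by glucocorticoids in many cells. It stood at 59.1 CPM with vehicle (281 UMIs in 177 members) and 192 CPM with fluconazole (910 UMIs in 404 members), a log2 ratio of 1.70 (1.51 to 1.90). The same difference was seen in remaining endothelial barcodes (log2 1.58) and arterial ones (1.71), whereas the microglial ratio was 0.19. Within members of a score of 2 to 4, 5 to 9 and 10 or more its log2 ratios were 1.67, 1.37 and 1.81.

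Other named genes that were higher fell into metabolic, secreted and signalling genes. Angptl4, a secreted inhibitor of lipoprotein lipase, stood at 9.26 and 24.3 CPM with vehicle and fluconazole, with log2 ratios of 1.39 in venous and 1.58 in remaining barcodes. Sult1a1, a sulfotransferase, stood at 41.2 and 86.9 CPM (log2 1.07, remaining 1.06), and the monooxygenase Fmo2 at 98.3 and 191 CPM (0.96, remaining 1.25). Fam107a, a stress-induced actin regulator, stood at 25.9 and 55.0 CPM (1.09, remaining 0.96). Ccn2, a matricellular protein, stood at 33.9 and 72.1 CPM (1.09, remaining 1.80). Its ratio was 1.67 in members of a score of 2 to 4, 1.00 at 5 to 9 and 0.44 (-0.03 to 0.92) at 10 or more. In microglia the Ccn2 ratio was -1.81 on 58 and 16 UMIs. Il17ra, the interleukin-17 receptor subunit, was sparse, at 5.68 and 17.3 CPM (1.61, remaining 1.11), as was F10, coagulation factor X, at 6.52 and 15.0 CPM (1.20, remaining 1.17). The arterial ratio of Il17ra was 0.69 (-0.18 to 1.61). Microglia carried Il17ra at higher levels, 63.3 and 62.8 CPM, with a ratio of -0.01.

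A few genes were higher in venous barcodes with smaller ratios in the remaining endothelium, though the difference between the ratios was not tested. Trim14, an adaptor of innate antiviral signalling, stood at 14.3 and 32.3 CPM (log2 1.18, interval 0.75 to 1.61) against a ratio of 0.21 in remaining barcodes. The cyclic AMP phosphodiesterase Pde4c stood at 16.8 and 36.8 CPM (1.13 against 0.61), and Lsmem1 at 19.2 and 37.6 CPM (0.97, interval 0.60 to 1.35, against 0.06).

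Lcn2, a secreted iron-siderophore carrier of the acute phase, was far higher in venous than in remaining endothelial (2.31 and 2.11 CPM), arterial or microglial barcodes, and was uneven among members. It stood at 41.2 CPM with vehicle (196 UMIs in 79 members) and 85.4 CPM with fluconazole (404 UMIs in 113 members), a log2 ratio of 1.05 (0.80 to 1.30). One member held 18.9% of its vehicle UMIs and another 12.1% of its fluconazole UMIs. The ratio did not have the same sign throughout: it was 1.29 in members with a score of 10 or more, -2.50 in those with a score of 5 to 9 (51 and 8 UMIs) and -0.31 in those with a score of 2 to 4 (13 and 9 UMIs).

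The mix of scores differed between the libraries and so lies beside every ratio of a venous gene. Members with a score of 10 or more were 186 with vehicle and 237 with fluconazole, 5.89% and 8.17% of endothelial barcodes, and Il1r1, Lrg1 and Ch25h, which feed the score, were themselves higher with fluconazole over all endothelial barcodes. That wider gate does not use them: Il1r1 stood there at 144 and 241 CPM (log2 0.74, interval 0.66 to 0.82), Lrg1 at 13.9 and 30.6 CPM (1.13, 0.88 to 1.39) and Ch25h at 13.9 and 23.1 CPM (0.73, 0.46 to 1.00). Vwf and Slc38a5 had log2 ratios of 0.26 and 0.11 over the same barcodes. Genes of like venous character did not follow Il1r1: Vcam1, Icam1, Ackr1, Ptgs2 and Nr2f2 had ratios between -0.16 and -0.02. In members of a score of 5 to 9 the venous genes were lower with fluconazole (Vcam1 -1.20, Ackr1 -3.49 on 38 and 3 UMIs, Ptgs2 -2.22), while at 10 or more they were near 0 (-0.01, -0.04 and -0.23). Since Il1r1, Lrg1 and Ch25h feed the score, members of the same score range need not be alike between the libraries. Ratios within a range, for any gene here, are therefore descriptions. What the mix of scores contributes to any of these ratios was not tested.

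**Figure D3:**
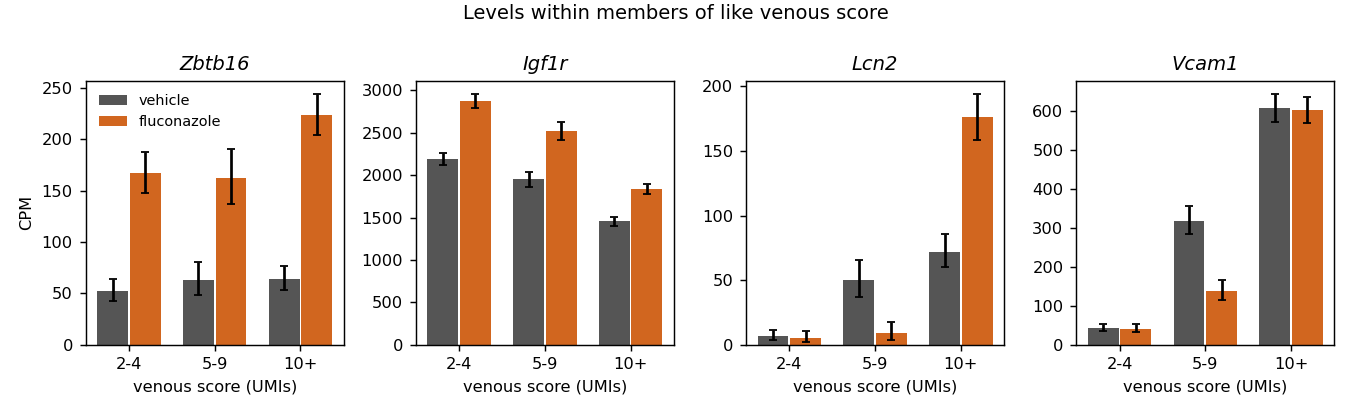
CPM of 4 genes within members of venous score 2 to 4, 5 to 9 and 10 or more, vehicle in grey and fluconazole in orange, with 95% Poisson intervals for counting error. Zbtb16 and Igf1r are higher with fluconazole in all 3 ranges, Lcn2 only at 10 or more, and Vcam1 in none.

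Among genes lower with fluconazole, several were lower in every class read. Tmem267, a membrane protein of little known function, stood at 38.1 CPM with vehicle and 9.51 CPM with fluconazole in venous barcodes (log2 -2.00, interval -2.51 to -1.52), with ratios of -3.50 in remaining, -2.36 in arterial and -2.15 in microglial barcodes. Hebp1, a heme-binding protein, stood at 52.8 and 13.7 CPM (-1.94; remaining -2.22, microglia -1.13). Ankrd37, which hypoxia is known to induce, stood at 70.7 and 27.1 CPM (-1.39), with a remaining ratio of -1.37 and a microglial ratio of -0.28.

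Other named genes that were lower have roles as receptors, matrix or carriers. Aplnr, the receptor for apelin and a marker of veins and sprouting vessels, stood at 27.6 CPM with vehicle (131 UMIs in 96 members). With fluconazole it stood at 10.1 CPM (48 UMIs in 40 members), log2 -1.44 (-1.95 to -0.95). Its ratio was -1.36 in remaining barcodes on 25 and 9 UMIs, and -2.99 in arterial ones on 7 and 1 UMIs (-8.48 to -0.03). Among members it was -0.21 at a score of 2 to 4, -1.89 at 5 to 9 and -2.01 at 10 or more. Col6a6, a collagen VI chain, stood at 45.0 and 19.2 CPM (-1.23, -1.60 to -0.87) and was below 1 CPM in remaining barcodes of both libraries, at 0.889 and 0.192 CPM. The tetraspanin Tspan18 stood at 22.3 and 7.61 CPM (-1.55, remaining -0.66), and the fatty acid carrier Fabp5 at 26.9 and 12.5 CPM (-1.11, remaining -0.77). Tubb3, Ak5 and Mlip, also named, are genes of neurons or muscle: their ratios were -1.61, -1.28 and -1.12, and the neuron marker sum in venous barcodes was 676 CPM with vehicle and 500 CPM with fluconazole. Its part in these ratios was not tested. With barcodes thinned to 1500 UMIs the ratios of Tubb3 and Mlip turned to 0.72 and 0.63.

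**Figure D4:**
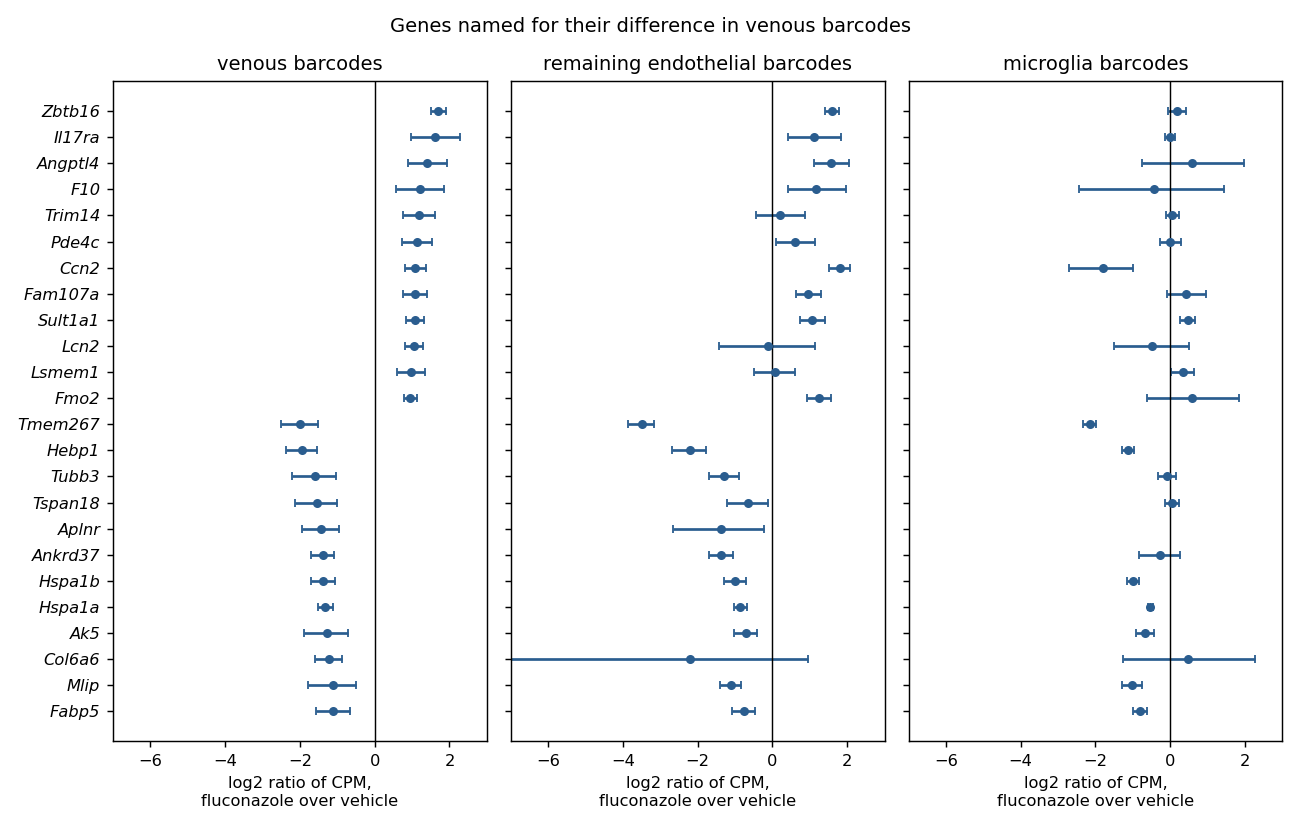
Log2 ratios of CPM, fluconazole over vehicle, of the 24 genes named for the venous barcodes (12 highest, 12 lowest), shown in venous, remaining endothelial and microglial barcodes with 95% counting intervals. Zbtb16, Angptl4 and Fmo2 lie right of 0 in both endothelial panels, Trim14 and Lsmem1 near 0 in the remaining barcodes, and Tmem267 and Hebp1 left of 0 in all 3; a gene without UMIs in 1 of the libraries has no point.

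Genes known to answer glucocorticoids were mostly higher in the fluconazole library. Steroid hormones of this family bind the receptor Nr3c1, which then activates genes through DNA elements. Of 24 measured members of the list, 18 were higher and 6 lower, 7 were at least 1.5-fold higher (the share of all genes was 2.81%), and the list median was log2 0.29 against -0.01 over all genes. The 7 were Zbtb16, Angptl4, Sult1a1, Lcn2, Fkbp5, Map3k6 and Cebpd. Zbtb16, Angptl4, Sult1a1 and Lcn2 were already named above for their ratios, and that of Lcn2 changed sign with the score. The list was chosen with earlier results of these data known, so its counts are a description and not independent support. Fkbp5, the chaperone that restrains the receptor, stood at 12.4 and 23.3 CPM (log2 0.90, interval 0.44 to 1.39), and Cebpd, a transcription factor of the acute phase, at 181 and 315 CPM (0.80). Tsc22d3, the glucocorticoid-induced leucine zipper, stood at 213 and 302 CPM (0.51). Sgk1 and the receptor gene Nr3c1 itself stood near equality (-0.02 and -0.05), and Dusp1 and Pdk4 were lower (-0.16 and -0.41). The remaining endothelium had a list median of 0.40 with 20 of 24 higher, so the pattern was not particular to the venous class.

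The promoters of these genes were read for the receptor's response element. The windows are the 250 bases before each annotated start in RefSeq (GRCm38.p6), and the motif was GNACA and TGTNC with any 3 bases between them, 13 bases that read the same on both strands. It was present in 0.387% of all 32851 windows and in 0.440% of all 27025 genes with a window. Of the 24 genes, 18 had a window, without Zbtb16, Angptl4, Cebpd, Nr3c1, Tgm2 and Cables1, and 3 of these held the motif, as did 1 of the 7 named higher genes with a window, Fam107a, and 0 of 8 named lower genes. The promoters of the 4 genes with a match, with the motif in capitals, lie as follows: Fam107a at chr14:8309778-8310027 on the minus strand, Map3k6 at chr4:133240568-133240817, Mt1 at chr8:94178839-94179088 and Sgk1 at chr10:21993640-21993889, the last of these, like Map3k6 and Mt1, on the plus strand.
Fam107a: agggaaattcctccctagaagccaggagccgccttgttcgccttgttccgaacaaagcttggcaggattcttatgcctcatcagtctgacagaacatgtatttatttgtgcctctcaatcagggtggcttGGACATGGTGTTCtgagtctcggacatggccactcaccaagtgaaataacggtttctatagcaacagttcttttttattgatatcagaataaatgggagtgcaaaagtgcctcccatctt
Map3k6: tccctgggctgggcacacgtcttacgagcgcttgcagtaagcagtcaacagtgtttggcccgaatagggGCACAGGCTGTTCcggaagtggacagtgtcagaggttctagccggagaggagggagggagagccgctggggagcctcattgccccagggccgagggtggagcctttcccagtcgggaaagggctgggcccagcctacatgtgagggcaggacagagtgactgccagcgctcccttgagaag
Mt1: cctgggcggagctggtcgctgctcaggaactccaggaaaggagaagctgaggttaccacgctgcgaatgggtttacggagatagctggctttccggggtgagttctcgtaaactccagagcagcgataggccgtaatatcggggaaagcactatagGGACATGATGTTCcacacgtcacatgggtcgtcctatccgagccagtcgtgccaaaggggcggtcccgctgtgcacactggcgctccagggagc
Sgk1: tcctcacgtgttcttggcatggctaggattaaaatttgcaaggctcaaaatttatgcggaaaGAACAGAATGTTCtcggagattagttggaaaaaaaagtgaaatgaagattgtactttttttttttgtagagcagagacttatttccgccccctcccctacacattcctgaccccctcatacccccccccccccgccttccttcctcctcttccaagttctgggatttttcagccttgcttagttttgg

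The matches did not divide genes by their ratio. Fam107a and the kinase Map3k6 were higher with fluconazole in venous barcodes (log2 1.09 and 0.83), while the metal-binding Mt1 and the kinase Sgk1 were not (-0.16 and -0.02). A match describes these letters only, and windows of this length leave out distant elements.

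Circadian clock genes showed a smaller shift in the same direction. Of 18 measured, 5 were lower and 13 higher, and the median log2 ratio was 0.20. The clock repressor Per2 stood at 24.2 and 37.4 CPM (0.63), the output factor Tef at 43.6 and 67.0 CPM (0.62) and Dbp at 73.0 and 100 CPM (0.45), while the activator Arntl was lower, at 27.6 and 20.7 CPM (-0.41). The hour at which mice were killed is not given in the sources used here.

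Heat shock chaperones were lower in 17 of 18 cases, 3 of them at least 1.5-fold (the share of all genes was 3.88%), with a median of -0.24. The inducible chaperones Hspa1a and Hspa1b stood at 145 and 57.9 CPM (-1.32) and at 65.0 and 24.9 CPM (-1.38), and Hsph1 at 35.4 and 18.6 CPM (-0.93). The constitutive Hspa8 differed little (-0.11), and Bag3 was the 1 member that was higher (0.13). In the remaining endothelium 16 of 18 were lower and the median was -0.14.

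Leukocyte adhesion genes mostly matched between libraries apart from 3. Of 19 measured, 7 were higher and 12 lower, and the median was -0.05. The 3 were at least 1.5-fold lower (the share of all genes was 3.88%). None was 1.5-fold higher (the share of all genes was 2.81%). E-selectin (Sele), which slows rolling leukocytes, had 60 UMIs in 16 vehicle members and 2 UMIs in 2 fluconazole members, and 0 in the remaining barcodes of either library, which allows up to 0.533 and 0.576 CPM there. P-selectin (Selp), released from the same granules as von Willebrand factor, had 45 UMIs in 14 members and 13 in 7. The chemokine Cxcl10 had 132 UMIs in 45 members and 52 in 22, and 73 and 7 UMIs in the remaining barcodes. These counts lie in few barcodes: 1 vehicle member held 18 of the 60 Sele UMIs, 1 held 10 of the 45 Selp UMIs and 1 held 32 of the 132 Cxcl10 UMIs, and without these the vehicle counts were 42, 35 and 100. By contrast Vcam1 had 1518 and 1514 UMIs and Icam1 1512 and 1344 (log2 0.00 and -0.16).

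The sum of the leukocyte markers was higher with vehicle, though not every marker differed. The 8 leukocyte markers summed to 82.3 CPM in vehicle and 18.0 CPM in fluconazole venous barcodes, and 62.9% of the vehicle sum lay in 1 barcode. That was mainly S100a8 and S100a9, genes of neutrophils, with 101 of 125 and 142 of 165 UMIs in 1 member each. Ptprc differed little, at 13.05 and 12.26 CPM, as did Cd79a, at 3.58 and 3.17 CPM, while Nkg7 had 11 and 3 UMIs. Ms4a1 was at 0 with vehicle and Cd3d and Cd3e with fluconazole. Red blood cell markers also differed, at 5583 and 2889 CPM. Their part in the selectin values was not tested.

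Cytokine signalling genes, read around the interleukin-1 receptor that helps to define the class, were balanced. Of 36 genes of interleukin-1, tumour necrosis factor and NF-kB signalling, 21 were lower and 15 higher, and the median was -0.06. By at least 1.5-fold, 2 were higher and 1 was lower (the shares of all genes were 2.81% and 3.88%). Tnfaip3, which ends NF-kB signalling, stood at 43.1 and 25.4 CPM (-0.77, interval -1.10 to -0.43), while the receptor subunit Il6ra stood at 82.5 and 101 CPM (0.30). Of the interferon-response genes 8 were higher and 22 lower (median -0.10), and none passed 1.5-fold. In venous against remaining barcodes, 6 of these 36 genes were at least 2-fold higher in both libraries (1.14% of all genes) and none was 2-fold lower in both (9.33% of all genes).

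Antigen presentation genes split by class. Class I genes differed little, with H2-K1 at 716 and 679 CPM and H2-D1 at 517 and 554 CPM (-0.08 and 0.10). The class II genes H2-Aa, H2-Ab1 and the invariant chain Cd74 were the 3 of 18 that were at least 1.5-fold higher (2.81% of all genes), but they came from single barcodes. One fluconazole member held 308 of 324 Cd74 UMIs, 165 of 170 H2-Aa UMIs and 109 of 117 H2-Ab1 UMIs, and 1 vehicle member held 112 of 166, 82 of 110 and 46 of 62. Without them Cd74 had 54 vehicle and 16 fluconazole UMIs, the opposite direction.

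Angiogenic receptors and ligands were more often lower than higher, beside 48.3% of all genes above 0. Of 25 angiogenic receptors and ligands 19 were lower and 6 higher, 4 at least 1.5-fold lower (the share of all genes was 3.88%), and the median was -0.16. The 4 were Aplnr, its ligand Apln at 15.2 and 8.03 CPM (-0.92), the guidance receptor Unc5b at 15.2 and 8.67 CPM (-0.81) and the lymphatic and venous growth factor Vegfc at 49.0 and 29.6 CPM (-0.73). Apln rests on single barcodes: 1 vehicle member held 58 of its 72 UMIs and 1 fluconazole member 18 of 38, and the 14 and 20 UMIs left go the other way. For Vegfc 1 fluconazole member held 37 of 140 UMIs. The co-receptor Nrp1 stood at 265 and 198 CPM (-0.42). The receptors Kdr and Tek had ratios of -0.36 and -0.07, and Flt4 had 0.36. Arterial markers outside the rule were lower in 11 of 12 (median -0.37), at low levels, and this median was 0.06 with barcodes thinned to 1500 UMIs.

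Haemostasis genes held both directions. Of 18, 12 were lower and 6 higher, and the median was -0.14. The metalloproteinases Adamts9, at 76.6 and 38.3 CPM, and Adamts1, at 252 and 158 CPM, were lower (intervals -1.27 to -0.74 and -0.81 to -0.55), and prostacyclin synthase Ptgis, at 32.4 and 47.3 CPM, and F5 were higher (0.55 and 0.53). Thbd, the thrombin-binding anticoagulant receptor, differed little (-0.09), as did the nitric oxide synthase Nos3 (0.01). Among matrix genes, of which 8 were higher and 16 lower, the basement membrane collagens Col4a1 and Col4a2 stood at 356 and 259 CPM and at 276 and 216 CPM (-0.46 and -0.35), and fibronectin Fn1 at 837 and 1026 CPM (0.29).

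The study's title names lipid rafts and the IGF1 receptor, and fluconazole acts on sterol synthesis, so these genes were read in full. Igf1r stood at 1856 CPM with vehicle and 2326 CPM with fluconazole (log2 0.33, interval 0.28 to 0.37), and the ratio was 0.33, 0.37 and 0.39 in members of high, middle and low score and 0.52 in remaining barcodes. Insr, the insulin receptor, stood at 336 and 395 CPM (0.23), and Foxo3, a transcription factor that insulin signalling restrains, at 56.6 and 77.8 CPM (0.46). Of the 29 genes of this pathway 18 were higher, 11 lower and none 1.5-fold apart, with a median of 0.06. Caveolar and raft genes had 7 higher and 8 lower (median -0.07): Cav1 stood at 336 and 311 CPM (-0.12) and Flot1 at 43.8 and 57.7 CPM (0.40). Cholesterol synthesis genes had 9 higher and 9 lower (median -0.04). Of these 18, 2 were at least 1.5-fold lower (the share of all genes was 3.88%) and none was 1.5-fold higher (2.81%). Cyp51, the mammalian homologue of the fungal drug target, stood at 18.7 and 17.5 CPM (-0.09, interval -0.54 to 0.35). Hmgcs1 was lower by less than 1.5-fold, at 38.3 and 26.6 CPM (-0.52), and Fdps higher, at 21.9 and 29.6 CPM (0.44).

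Transcript levels of barrier genes were mostly close between libraries. Of 32 transporters 14 were lower and 18 higher, and the median was 0.01. The efflux pumps Abcb1a, Abcg2 and Abcc4 stood at 1332 and 1598 CPM, 930 and 1159 CPM, and 404 and 567 CPM (0.26, 0.32 and 0.49), with remaining ratios of 0.32, 0.43 and 0.68. The lactate transporter Slc16a1 was lower, at 476 and 367 CPM (-0.37). Junction genes had 10 higher and 15 lower. Tjp1 stood at 1402 and 1544 CPM (0.14), and Pcdh12, an endothelial protocadherin, at 13.9 and 3.38 CPM (-2.04, on 66 and 16 UMIs). The junction gene Cldn5, left out of the list because the rule uses it, stood at 5448 and 4278 CPM (-0.35, interval -0.38 to -0.32). In remaining barcodes Cldn5 stood at 4363 and 3525 CPM. Wnt pathway genes had 13 higher and 12 lower (median 0.00), and genes of sterol uptake, oxysterols and transport 14 and 11 (0.03). Among arteriovenous specification genes 21 were lower and 11 higher (-0.10), among immediate early genes 19 and 11 (-0.07), among pan-endothelial genes outside the rule 8 and 2 (-0.07), among capillary markers 8 and 1 (-0.08) and among venous markers outside the rule 10 and 4 (-0.10).

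**Figure D5:**
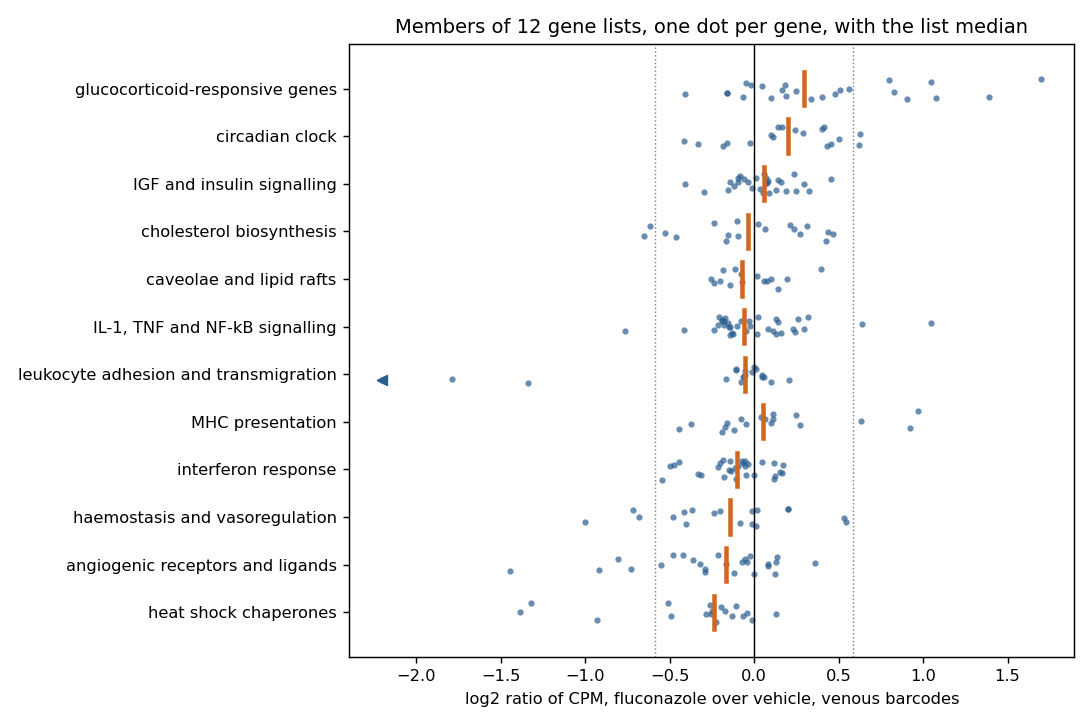
Log2 ratios of CPM, fluconazole over vehicle, in venous barcodes for the members of 12 gene lists, one dot per gene; orange bars are list medians, dotted lines mark 1.5-fold, vertical scatter has no meaning and the triangle is Sele, beyond the axis. The medians of the glucocorticoid-responsive and clock lists lie to the right of 0 and those of the heat shock and angiogenic lists to the left, while the medians of the IGF, cholesterol and raft lists lie near 0; most lists have genes on both sides.

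Measures of RNA quality and of other cells differed little or in the direction given. Of 13 mitochondrially encoded genes 11 were higher with fluconazole (median 0.14), of 83 ribosomal protein genes 57 (0.04), and of 8 nuclear-retained RNAs 2 (-0.19). Mural markers, all 10 detected, summed to 700 and 657 CPM in venous barcodes, microglial and macrophage markers, all 10 detected, to 399 and 311 CPM, astrocyte markers to 194 and 189 CPM, and oligodendrocyte markers to 133 and 120 CPM. Fibroblast markers summed to 18.9 and 10.6 CPM, lymphatic markers to 5.47 and 4.02 CPM and choroid plexus markers to 2.74 and 2.33 CPM. Fenestrated endothelial markers summed to 96.8 and 83.1 CPM in venous and to 140 and 167 CPM in remaining barcodes, mainly from Plpp1 and Plpp3. Of the same list, Plvap had 5 and 1 UMIs in venous barcodes. Esm1, a marker of fenestrated and tip endothelium, was at 0 in both venous groups.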

How the data were processed

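Per the file headers and the values, the deposited matrices hold unnormalized UMI counts, all whole numbers, for each gene in each barcode. The matrix header names Cell Ranger 8.0.1. By contrast, version 9.0.0 of that program stands in the submitters' processing notes, beside the mm10 build, R 4.0.3 and Seurat 4.0.0, without saying which step used which. Whether introns were counted, which in nuclei sets much of a gene's count, is not given in the sources used here. The libraries are 3' libraries per the labels' protocols, so levels of different genes are not compared.

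UMIs of all member barcodes were summed per library and divided by their total to give CPM. Ratios carry exact conditional binomial intervals, levels exact Poisson intervals and shares Clopper-Pearson intervals. The ratio was tested on simulated Poisson counts drawn independently for each gene. These leave out the clumping of UMIs in single barcodes, so they do not show how well the intervals hold for clumped genes. Between treatments, genes of at least 50 UMIs were read. Between classes, 50 UMIs were required in each library. The 20 rule genes were left out of counts and lists. Doublets were called with Scrublet (scanpy 1.11.5, expected rate 8%), which marked 4.13% and 4.09% of barcodes, and were kept except in 1 alternative. Python 3.11.15, numpy 2.4.6, scipy 1.17.1 and pandas 2.3.3 were used.

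Named genes were the 12 highest and 12 lowest ratios (venous against remaining: 12 and 8) among genes with symbols, at least 100 UMIs, at most 20% of UMIs in 1 barcode and an interval that left out 0. From each of 26 lists, extremes and members the list turns on were added. Sele, Selp and Cxcl10 lie in few barcodes and enter through their list. Il1r1, Lrg1 and Ch25h over all endothelial barcodes, the ranges of the score, the single-barcode counts and the promoter motif were chosen after their values were seen. An NF-kB motif was looked for first and had no match in the windows of the venous genes read. The result of 1 gene is not reported here. The members and lists were chosen with earlier results of these data known.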

Additional observations from a re-analysis of the deposited data

How the results depend on the processing

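With 1 library per treatment no test could be run, and depth limits genes of few UMIs: 680 genes were at least 1.5-fold higher and 846 lower where 20 UMIs sufficed, and 77 and 107 where 200 were required. No paired analysis was possible because each treatment has 1 library. Leaving out doublets or changing the scaling moved no count of genes by over 1.5 times.

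The venous share of endothelial barcodes, in vehicle and fluconazole, was 17.5% and 16.9% with barcodes thinned to 1500 UMIs, 19.9% and 20.2% at a score of at least 3, 24.5% and 24.0% with Vwf and Slc38a5 alone, and 29.7% with vehicle at 1000 genes per barcode. At a score of at least 10, a setting chosen after seeing the data, it was 5.89% and 8.17%, a ratio of 1.39. The mean over barcodes gave 478 higher genes, and thinning gave 211 lower ones among the 5278 genes it left measurable, 4.00% against 3.88%. Against remaining barcodes, 68 genes were at least 2-fold higher after thinning and 67 at 200 UMIs. The count of genes 2-fold lower was 168 after thinning, 401 with no UMI of the 4 genes of other classes, 162 at no more than 1% of other-class UMIs, 468 at 200 UMIs and 415 as a mean over barcodes. Thinning turned the direction of Tubb3 (log2 0.72), Mlip (0.63) and the arterial list median (0.059). The cause of these moves was not tested. Of 312 list medians over the alternatives, 290 stayed within their spread, as did 213 of 240 ratios of genes named between treatments and 260 of 360 between classes.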
